A study of Homo sapiens with 27 samples.

Results

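The matrix metalloproteinases, their tissue inhibitors and the ADAMTS and ADAMTSL genes were followed through directed cardiac differentiation of the human embryonic stem cell line HuES6. Members are defined by gene symbol: MMP, TIMP, ADAMTS or ADAMTSL followed by a number. The array annotation named 51 such genes of the 20046 genes with a probe, on 75 probes of 30113 with a single gene symbol. They comprised 24 MMP, 4 TIMP, 18 ADAMTS and 5 ADAMTSL genes. Each gene was read from the probe with the highest mean raw signal, and a probe counted as detected on an array at a detection p below 0.01. Of the 51 genes, 29 were detected on at least 2 arrays and were tested, among 13534 tested genes in all. MMP23A is annotated as a transcribed pseudogene and a near copy of MMP23B, so signal may be shared between them.

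Matrix metalloproteinases are zinc enzymes that cut collagens, gelatin, proteoglycans and cell surface proteins. Most are secreted as inactive zymogens, while the membrane-type enzymes stay anchored at the cell surface. TIMPs are small proteins that block the catalytic site, and TIMP2 also helps MMP14 to activate MMP2 at the membrane. ADAMTS enzymes are secreted relatives that cut versican and aggrecan or trim procollagen, and ADAMTSL proteins share their ancillary domains but have no protease domain and bind fibrillin-rich matrix. In the embryonic heart this system remodels the versican-rich cardiac jelly and the endocardial cushions.

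Total RNA was hybridised to 27 Illumina bead arrays, 13 from time course 1 and 14 from time course 2. All arrays were of HuES6, and day 0 was sampled before induction. Cells of every later day had been exposed in the first 24 hours to 10 ng/ml of FGF2, 1 ng/ml of BMP4 and 1 µM of the compound written in the labels as CHIR00921. Insulin was present at the start and withdrawn from day 1, and the cells were kept in serum-free, chemically defined media and replated on Matrigel. The arm without inhibitor was sampled on days 0, 1, 2, 3, 4, 5, 6 and 8, with 1 array per day in each time course. The other arm received IWP-2, which inhibits Porcupine and thereby WNT secretion, in time course 1 on days 2 and 3, and a day earlier, on days 1 and 2, in the other. That arm was sampled on days 3, 4, 5, 6 and 8 of each time course and on day 2 of time course 2. The IWP-2 window and the run differed together, so they cannot be told apart, and 1 cell line limits the model to that line. The labels do not state that the days came from separate cultures, and the p-values reflect only how far these arrays vary, part of which may be technical.

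Arrays held 16424 to 19784 detected probes, and mean raw signal lay between 293.1 and 349.5 except for IWP-2 on day 8 of time course 2, at 225.2. Levels below are normalized log2 signals, and the lowest value that still counted as detected lay between 4.72 and 5.13 depending on the array. Pairs of values are given in the order time course 1, time course 2. Levels of different probes are not set against each other. On days 6 and 8, markers of other cell types moved with the arm. The summed signal of 11 fibroblast and mesenchyme markers was 49600 to 67700 without inhibitor and 2490 to 22600 with IWP-2, where POSTN and PRRX1 were not detected on any array, and 9 of 11 were lower with IWP-2 and 0 higher. The summed signal of 10 cardiomyocyte markers was 1530 to 2950 without inhibitor, where ACTN2 and NKX2-5 were not detected, and 44600 to 75500 with IWP-2, and 10 of 10 were higher. The sums were 1450 to 2100 and 455 to 1280 for 7 endothelial markers, and 15200 to 17300 and 7080 to 11000 for 8 trophoblast and amnion markers. HAND1, which mesoderm and heart also express, dominated that last sum, and of the 8 genes 1 was higher with IWP-2 and 1 lower. They were 723 to 7430 and 251 to 1020 for 6 endoderm markers, and 1640 to 3960 and 672 to 3880 for 7 markers of pluripotent cells. By gene, only 1 of 7 endothelial, 2 of 6 endoderm and 3 of 7 pluripotent markers were lower with IWP-2, and 0 were higher. From day 0 the markers moved further. The pluripotent sum was 24700 to 26700 on day 0, and 7 of 7 of its markers fell in each arm. The fibroblast sum was 1650 to 2110 on day 0, and 10 of 11 markers rose and 1 fell without inhibitor, while 6 rose and 1 fell with IWP-2. The cardiomyocyte sum was 285 to 402 on day 0, and 2 of 10 markers rose without inhibitor and 10 of 10 with IWP-2. On days 3 and 4 the fibroblast sum was 7270 to 26500 without inhibitor and 4380 to 10200 with IWP-2. There 3 of 11 markers were lower with IWP-2 and 0 higher. The cardiomyocyte sum was 1120 to 4250 and 1160 to 24200, and 0 of 10 markers were higher or lower. MYH6 was at 9.12 and 13.74 on day 4 with IWP-2. The part of these cell types in the differences below was not tested. In RNA from mixed cells fewer cells of a type and less RNA per cell cannot be told apart.

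RefSeq promoter windows on GRCh38.p14 were found for 31 of the 51 genes, 32 windows in all since ADAMTS10 had a pair, and the 250 bases before the start of the gene were searched on both strands. The upstream sequences of MMP10 and MMP7 are shown because they belong to a run of 9 neighbouring MMP genes of which only MMP10 was detected on 2 arrays. Those of ADAMTSL2, MMP15 and TIMP3 are shown as examples of genes that were higher late with IWP-2. Capitals mark the AP-1 motif TGANTCA and the TATA motif TATAAA. The MMP10 sequence is chr11:102780629-102780878 on the minus strand, MMP7 is chr11:102530748-102530997 on the minus strand, ADAMTSL2 is chr9:133534454-133534703 on the plus strand, MMP15 is chr16:58025504-58025753 on the plus strand and TIMP3 is chr22:32801455-32801704 on the plus strand.
MMP10: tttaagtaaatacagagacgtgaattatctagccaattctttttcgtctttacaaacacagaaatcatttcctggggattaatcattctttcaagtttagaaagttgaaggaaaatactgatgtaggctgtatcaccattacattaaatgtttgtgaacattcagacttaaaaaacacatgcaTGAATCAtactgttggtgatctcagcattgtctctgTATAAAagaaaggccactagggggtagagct
MMP7: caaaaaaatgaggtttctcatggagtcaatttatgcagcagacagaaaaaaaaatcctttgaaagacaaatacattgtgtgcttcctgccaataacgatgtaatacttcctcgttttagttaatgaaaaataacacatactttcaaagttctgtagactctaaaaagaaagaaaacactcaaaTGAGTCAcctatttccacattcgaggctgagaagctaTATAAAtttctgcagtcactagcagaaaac
ADAMTSL2: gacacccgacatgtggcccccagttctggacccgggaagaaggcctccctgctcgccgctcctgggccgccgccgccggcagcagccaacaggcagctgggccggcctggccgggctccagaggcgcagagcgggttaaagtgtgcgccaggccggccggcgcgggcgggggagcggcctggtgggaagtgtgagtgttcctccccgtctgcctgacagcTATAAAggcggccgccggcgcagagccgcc
MMP15: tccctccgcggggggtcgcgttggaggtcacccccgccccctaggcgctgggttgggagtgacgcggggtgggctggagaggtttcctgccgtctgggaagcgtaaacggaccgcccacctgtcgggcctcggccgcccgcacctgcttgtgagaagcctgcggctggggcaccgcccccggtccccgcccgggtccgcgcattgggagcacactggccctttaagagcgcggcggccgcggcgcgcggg
TIMP3: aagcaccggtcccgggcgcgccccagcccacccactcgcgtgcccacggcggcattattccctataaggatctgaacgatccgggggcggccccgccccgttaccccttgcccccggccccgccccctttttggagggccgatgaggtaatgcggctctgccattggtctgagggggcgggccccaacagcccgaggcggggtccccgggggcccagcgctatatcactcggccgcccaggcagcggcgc

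The AP-1 match began 67 bases before the start in both MMP10 and MMP7, and the TATA match 31 and 30 bases before it. ADAMTSL2 held a TATA match that began 30 bases before its start and no AP-1 match, and MMP15 and TIMP3 held neither. ADAMTS19 and ADAMTS3 were also higher late with IWP-2, and their windows, not printed, held neither. The matches of different motifs did not overlap. AP-1 matches were present in 4 of the 32 member windows (ADAMTS12, MMP7, MMP20 and MMP10) against 6.57% of 35116 windows in the table. TATA matches were present in 8 of 32 against 10.72%. The letters CTTTGAT, a TCF/LEF motif, were in 0 of 32 against 2.26%. Base composition differed among the windows printed: G and C made up 34.4% of the MMP10 sequence and 33.6% of MMP7, but 73.6% of ADAMTSL2, 74.8% of MMP15 and 72.4% of TIMP3. The median was 73.4% in the 18 windows of detected members, 60.6% in the 14 of other members and 58.0% over the table. A match is a description of the letters and shows no binding.

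The members divided first by whether they were seen at all. Detection covered 12 of 24 MMP genes, all 4 TIMP genes, 9 of 18 ADAMTS genes and 4 of 5 ADAMTSL genes. The 7 genes detected on all 27 arrays were MMP11, MMP15, MMP23B, TIMP1, TIMP2, ADAMTS1 and ADAMTS19. A further 22 were detected on 2 to 26 arrays. ADAMTS13, ADAMTS2 (a procollagen N-propeptidase) and MMP1 (interstitial collagenase) were detected on 1 array each. The 19 genes detected on none were MMP3, MMP7, MMP8, MMP12, MMP13, MMP17, MMP19, MMP20, MMP21, MMP26, MMP27, ADAMTS5, ADAMTS10, ADAMTS12, ADAMTS14, ADAMTS15, ADAMTS16, ADAMTS17 and ADAMTSL1.

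Several members lie side by side. In the RefSeq gene table MMP7, MMP20, MMP27, MMP8, MMP10, MMP1, MMP3, MMP12 and MMP13 follow each other on chromosome 11 with no other protein-coding gene between them. This run holds collagenases, stromelysins and matrilysin, and of its 9 genes only MMP10 was detected on 2 arrays. ADAMTS1 and ADAMTS5 are neighbours on chromosome 21, and ADAMTS1 was detected on all 27 arrays and ADAMTS5 on none. ADAMTS8 and ADAMTS15 are neighbours on chromosome 11, with ADAMTS8 detected on 11 arrays and ADAMTS15 on none. A probe that is not detected gives an upper bound on this platform and is no evidence that the gene was off.

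**Figure D1:**
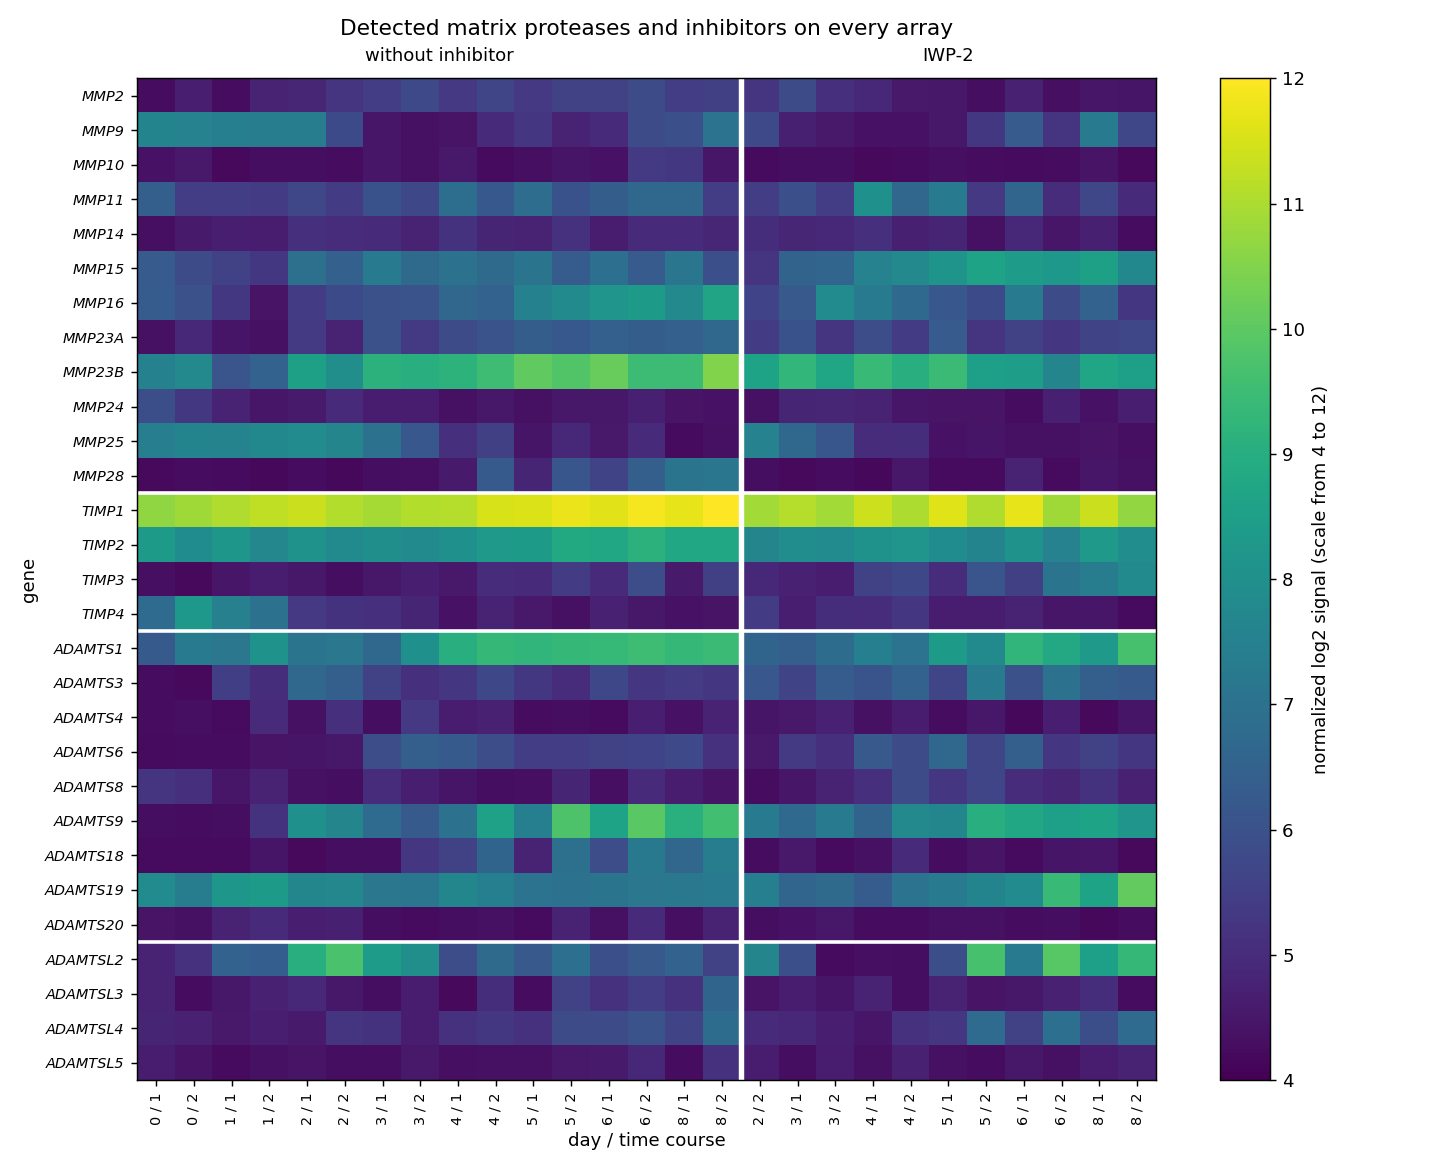
Normalized log2 signal of the 29 detected genes (rows, by family) on all 27 arrays (columns, day and time course), with the arm without inhibitor left of the white line and IWP-2 to the right. Dark cells are near or below the detection limit of 4.72 to 5.13, and colours compare arrays within a row, not genes with each other. MMP28 and ADAMTS18 were bright late without inhibitor, and ADAMTS19, TIMP3 and ADAMTSL2 late with IWP-2.

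For 7 contrasts, limma was fitted over all 27 arrays with the time course as a block, and a gene was called at an adjusted p below 0.05 (Benjamini-Hochberg over 13534 genes). Of the 29 detected members, 25 were called in at least 1 contrast, and ADAMTS4, ADAMTSL5, MMP11 and MMP14 in none. The matching share of all tested genes was not computed, and 1 contrast alone called up to 6597 of the 13534. The 25 are therefore no trait of the members. Members that pass a detection filter only through the group in which they are high are selected towards a difference. The counts that follow, and the p-values of such members, are therefore descriptions, and counts are set beside the share of all tested genes. MMP10, MMP28, ADAMTS4, ADAMTS18, ADAMTS20, ADAMTSL3 and ADAMTSL5 passed the filter only through the arm without inhibitor, and MMP24 only through day 0. Of these, ADAMTS4 and ADAMTSL5 were called in no contrast. From day 0 to day 2 without inhibitor 3 members rose and 3 fell, against 7.68% and 6.58% of all tested genes. By days 6 and 8 without inhibitor 15 had risen and 5 fallen from day 0, which is 51.7% and 17.2% of the 29, against 24% and 23.8% of all tested genes. With IWP-2 on the same days 10 had risen and 4 fallen, against 24.3% and 24.4%. Those last contrasts share the day 0 arrays. The median member differed from day 0 by 0.96 without inhibitor and by 0.11 with IWP-2, where the median of all tested genes was 0.00 and 0.01.

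Between arms on days 3 and 4, 0 members were higher with IWP-2 and 2 lower by limma's adjusted p (2 and 6 at an unadjusted p below 0.05), against 2.08% and 2.3% of all tested genes. On days 6 and 8, 5 were higher and 11 lower, which is 17.2% and 37.9% of the 29, against 17% and 18.1%. By family, 1 of 12 MMP genes was higher with IWP-2 and 6 lower, 1 of 4 TIMP genes higher and 2 lower, 2 of 9 ADAMTS genes higher and 2 lower, and 1 of 4 ADAMTSL genes higher and 1 lower. The median member difference was -0.26, against -0.02 over all tested genes. The difference between arms itself changed from days 3 and 4 to days 6 and 8 in 9 members, 4 towards higher and 5 towards lower with IWP-2, against 9.13% and 9.21%. With arrays scaled to a common median in place of quantile normalization, 13 members changed, 4 towards higher and 9 towards lower. In that setting 3849 of 13534 tested genes were called, 18.1% of them towards higher, and the median of all genes was -0.31. In the IWP-2 arrays of days 6 and 8, the shift from time course 1 to 2 was set against that of all other groups. It was more positive in 1 member and more negative in 0 (1 and 3 at an unadjusted p below 0.05), against 0.214% and 0.355%. With the arrays without inhibitor of those days as the comparator, 0 members and 4 genes were called.

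**Figure D2:**
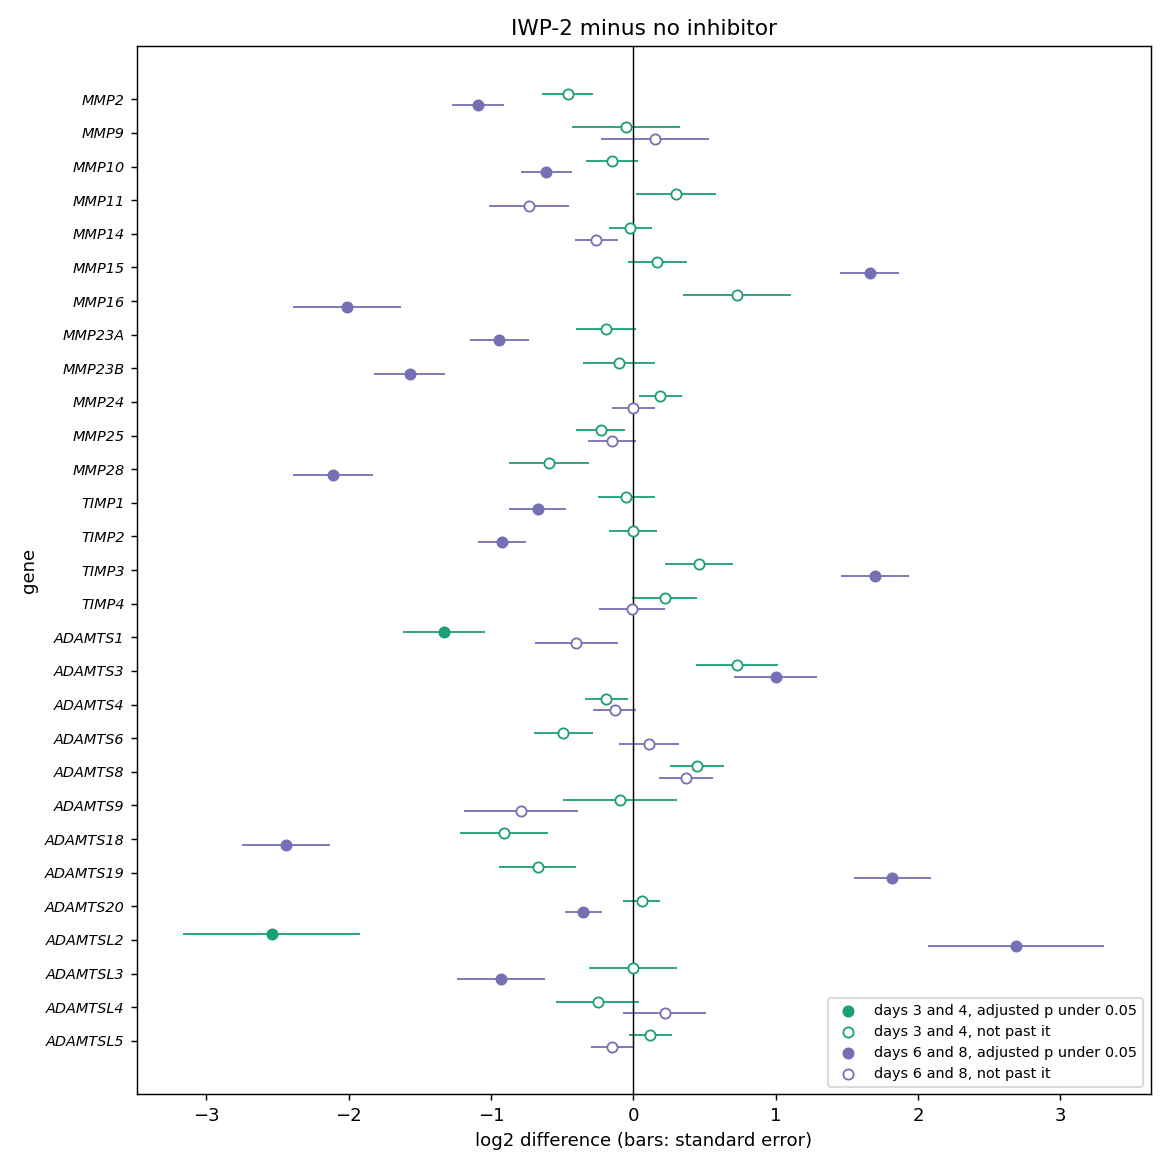
Log2 difference between IWP-2 and no inhibitor for each of the 29 genes on days 3 and 4 (green) and on days 6 and 8 (purple). Bars are standard errors, with 4 arrays per arm in each contrast, and filled points passed an adjusted p of 0.05. Filled green points are ADAMTS1 and ADAMTSL2 only, while 16 purple points are filled, 5 to the right of 0 and 11 to the left.

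The gelatinases MMP2 and MMP9, which cut denatured collagen and basement membrane, followed different courses. MMP2 was not detected on day 0, at 4.28 and 4.66. Without inhibitor it measured 5.45 and 5.76 on day 3, 5.56 and 5.84 on day 6, and 5.44 and 5.52 on day 8. In the IWP-2 arm its level was 5.84 and 5.08 on day 3, then 4.73 and 4.34 on day 6 and 4.47 and 4.46 on day 8, below detection on each of the last 4 arrays. The arms did not overlap on days 6 and 8. MMP2 was at least 1.63-fold lower with IWP-2 there (log2 -1.09 ± 0.18 SE, adjusted p = 0.000194). It had risen at least 1.56-fold from day 0 without inhibitor (1.12 ± 0.22, adjusted p = 0.00056), and its difference from day 0 with IWP-2 was 0.02 ± 0.22 with both groups below detection.

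MMP9 was high in the undifferentiated cells, at 7.60 and 7.54 on day 0. It was at 4.49 and 4.36 on day 3 without inhibitor and at 4.71 and 4.54 with IWP-2, all below detection. It measured 5.95 and 7.06 on day 8 without inhibitor and 7.25 and 5.70 with IWP-2, so that the arms overlapped and the time courses ran in opposite directions. The difference between arms on days 6 and 8 in time course 1 was 1.31, against -1.0 in time course 2 (0.15 ± 0.38 in the fit, adjusted p = 0.807). The limma test of the late IWP-2 arrays between time courses, relative to all other groups, gave -1.39 ± 0.48 with an adjusted p of 0.254. MMP9 was lower on days 6 and 8 than on day 0 in each arm, by -1.61 ± 0.47 without inhibitor (adjusted p = 0.00919) and by -1.45 ± 0.47 with IWP-2 (adjusted p = 0.0162). The first call was lost without day 0 of time course 2 (-1.56). The second was lost without either day 0 array (-1.50 and -1.41) and without IWP-2 on day 6 or day 8 of time course 2 (-1.20 and -1.08).

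Among the membrane-type enzymes, MMP15 rose from day 0 with IWP-2, MMP16 rose without inhibitor, and MMP14 did not pass any test. MMP14, the main activator of MMP2, stayed between 4.25 and 5.16 on all arrays, detected on 12, and its difference between arms on days 6 and 8 was -0.26 ± 0.15 (adjusted p = 0.192). MMP15 was at 6.31 and 5.85 on day 0. Without inhibitor it was 6.91 and 6.29 on day 6 and 7.13 and 5.95 on day 8, and with IWP-2 it was 8.40 and 8.26 on day 6 and 8.54 and 7.72 on day 8. Every IWP-2 array was above every array of the other arm on those days, a 3.16-fold difference (1.66 ± 0.21, adjusted p = 1.6e-05). MMP15 rose 4.43-fold from day 0 with IWP-2 (2.15 ± 0.26, adjusted p = 4.29e-06). On day 2 of time course 2, 1 day after IWP-2 was first added, the order was the other way round, with 5.21 with IWP-2 and 6.46 without. That is a single pair of arrays with no test.

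MMP16 stood at 6.33 and 5.98 on day 0. It climbed without inhibitor to 8.18 and 8.35 on day 6 and to 7.76 and 8.68 on day 8, a 4.25-fold rise over both days (2.09 ± 0.46, adjusted p = 0.00133). The IWP-2 arm had 6.23 and 7.86 on day 3, 7.32 and 5.82 on day 6, and 6.51 and 5.28 on day 8. The arms did not overlap on days 6 and 8 (-2.01 ± 0.38, adjusted p = 0.000549), and the difference in time course 1 was -1.05, against -2.97 in time course 2. A second probe of MMP16 differed less between arms (-0.56 ± 0.14, adjusted p = 0.00526) and its rise from day 0 missed the threshold (0.39 ± 0.17, adjusted p = 0.0742).

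MMP25, which is anchored by a lipid tail, was lost in both arms. It was 7.42 and 7.61 on day 0, 7.86 and 7.65 on day 2, 5.11 and 5.50 on day 4 and 4.24 and 4.36 on day 8 without inhibitor. The IWP-2 arm had 5.00 and 5.06 on day 4 and 4.43 and 4.32 on day 8. It fell at least 6.19-fold from day 0 to days 6 and 8 with IWP-2 (-3.15 ± 0.21, adjusted p = 7.72e-09), and by -3.00 ± 0.21 without inhibitor (adjusted p = 1.4e-08), where 1 of the 4 late arrays still detected it. MMP24 was detected on both day 0 arrays at 5.91 and 5.30 and on 1 later array. It was at least 1.75-fold lower on days 6 and 8 without inhibitor (-1.10 ± 0.18, adjusted p = 9.97e-05) and at least 1.64-fold lower with IWP-2 (-1.10 ± 0.18, adjusted p = 9.05e-05). Its lower level on day 2 (-0.83 ± 0.21, adjusted p = 0.0127) lost the call without time course 1 on day 0 (-0.49) or on day 2 (-0.64).

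**Figure D3:**
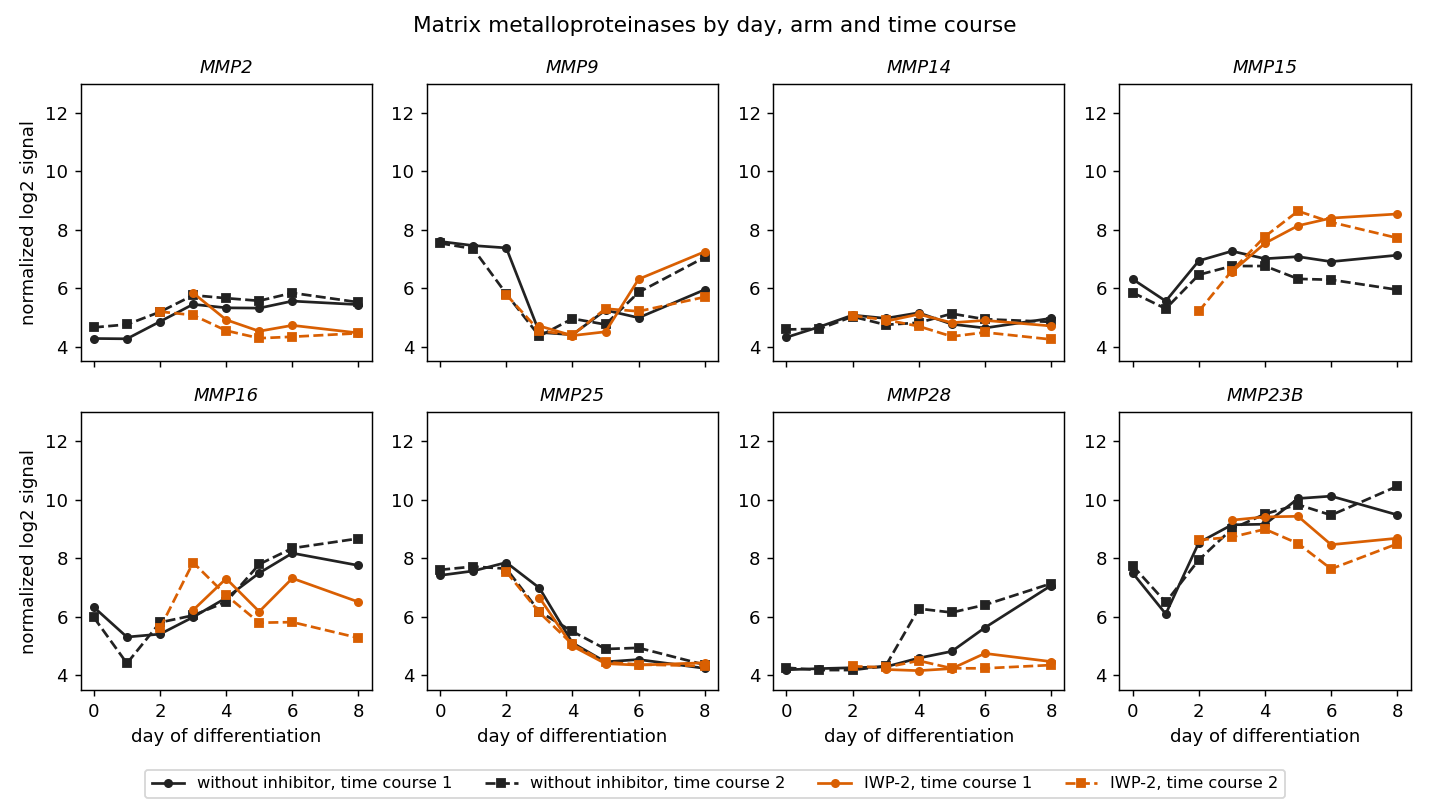
Normalized log2 signal of 8 MMP genes against day of differentiation, without inhibitor (black) and with IWP-2 (orange), time course 1 as circles with solid lines and time course 2 as squares with dashed lines. Each point is 1 array, and the detection limit ranged from 4.72 to 5.13 over the arrays. The arms part for MMP2, MMP15, MMP16, MMP23B and MMP28 and run together for MMP14 and MMP25.

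MMP28 (epilysin), a secreted enzyme, rose without inhibitor and was not detected with IWP-2. Without inhibitor it was below detection on day 3 at 4.29 and 4.32, then 4.59 and 6.28 on day 4, 5.63 and 6.41 on day 6 and 7.07 and 7.14 on day 8. It thus appeared by day 4 in time course 2 and by day 6 in time course 1. It was below detection on all 11 IWP-2 arrays, with 4.47 and 4.35 on day 8. It passed the detection filter only through the arm without inhibitor, so its p-values are descriptions. It was at least 3.20-fold lower with IWP-2 on days 6 and 8 (-2.11 ± 0.28, adjusted p = 2.27e-05). Its rise from day 0 without inhibitor was at least 3.06-fold (2.33 ± 0.34, adjusted p = 3.38e-05). A pair of other MMP28 probes differed between arms in the same direction by -0.70 ± 0.16 (adjusted p = 0.00276) and -0.58 ± 0.14 (adjusted p = 0.00368), and rose from day 0 without inhibitor by 0.75 ± 0.20 (adjusted p = 0.00501) and 0.67 ± 0.17 (adjusted p = 0.00382).

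MMP23B, an enzyme tethered by its amino terminus, was 7.50 and 7.75 on day 0 and dropped to 6.10 and 6.50 on day 1. It then rose without inhibitor to 10.13 and 9.48 on day 6 and 9.49 and 10.47 on day 8 (2.27 ± 0.31 over day 0, adjusted p = 1.68e-05). The IWP-2 levels were 8.47 and 7.64 on day 6 and 8.69 and 8.50 on day 8, below every array of the other arm (-1.57 ± 0.25, adjusted p = 0.000139). A second MMP23B probe differed between arms by -0.43 ± 0.20 (adjusted p = 0.107) and from day 0 by 0.31 ± 0.24 (adjusted p = 0.314), so both calls rest on the brighter probe. The probe of its copy MMP23A was 6.46 and 6.35 on day 6 and 6.46 and 6.69 on day 8 without inhibitor, and 5.58 and 5.27, then 5.65 and 5.69, with IWP-2 (-0.94 ± 0.21, adjusted p = 0.0024). That difference was no longer called in the table processed by the authors. MMP23A was at least 2.91-fold higher than on day 0 without inhibitor (1.85 ± 0.26, adjusted p = 2.44e-05). With IWP-2 it was at least 1.51-fold higher (0.91 ± 0.26, adjusted p = 0.00844), a call lost without day 0 of time course 1 (0.46).

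MMP10, a stromelysin, was detected only without inhibitor, at 5.35 on day 6 of time course 2 and 5.30 on day 8 of time course 1. Those arrays alone brought it past the detection filter, so its p-value is a description. MMP10 was lower with IWP-2 in the fit (-0.61 ± 0.18, adjusted p = 0.0161), a call lost without any of those arrays (-0.35 and -0.39) and without IWP-2 on day 8 of time course 2 (-0.55). MMP11, another stromelysin, peaked at 8.01 and 6.65 on day 4 with IWP-2, where the other arm had 6.90 and 6.19. Its difference on days 6 and 8 was -0.73 ± 0.28 (adjusted p = 0.0574).

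The TIMP genes parted by arm on days 6 and 8. TIMP3 was higher with IWP-2 than without, TIMP1 and TIMP2 were lower, and TIMP4 was detected in neither arm. TIMP1 lay between 10.66 and 12.08 on all 27 arrays. Without inhibitor it rose, with 10.66 and 10.85 on day 0, 11.64 and 11.89 on day 6, and 11.70 and 12.08 on day 8 (1.07 ± 0.24, adjusted p = 0.00145). The IWP-2 arm measured 11.70 and 10.85 on day 6 and 11.36 and 10.71 on day 8, so the arms overlapped in time course 1 and the difference of the IWP-2 arm from day 0 missed the threshold (0.40 ± 0.24, adjusted p = 0.186). The difference in time course 1 was -0.14, against -1.21 in time course 2 (-0.67 ± 0.20 in the fit, adjusted p = 0.0128). That call was lost without any of the 4 arrays of time course 2 on those days, with values from -0.58 to -0.47.

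TIMP2 was 8.37 and 7.88 on day 0. Without inhibitor it was 8.77 and 9.15 on day 6 and 8.78 and 8.81 on day 8, and with IWP-2 8.08 and 7.56, then 8.29 and 7.91, so the arms did not overlap (-0.92 ± 0.17, adjusted p = 0.000496). A second TIMP2 probe differed between arms as well (-1.14 ± 0.14, adjusted p = 1.2e-05). The probes disagreed on time. The brighter probe rose from day 0 without inhibitor (0.75 ± 0.21, adjusted p = 0.00675), a call lost without day 0 of time course 2 (0.54), and differed by -0.17 ± 0.21 with IWP-2 (adjusted p = 0.543). The second differed by -0.13 ± 0.17 without inhibitor (adjusted p = 0.581) and fell with IWP-2 (-1.27 ± 0.17, adjusted p = 1.53e-05).

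TIMP3, which binds to the matrix and also blocks ADAM and ADAMTS enzymes, was below detection on days 0 to 3 of the arm without inhibitor, at 4.34 and 4.21 on day 0. That arm reached 4.98 and 5.88 on day 6 and 4.59 and 5.51 on day 8, higher in time course 2. Under IWP-2 the levels were 5.54 and 5.74 on day 4, 5.51 and 7.07 on day 6, and 7.37 and 7.80 on day 8. On each of days 6 and 8 the IWP-2 array was above its partner of the same time course, although 5.51 on day 6 of time course 1 lay within the range of the other arm. The difference was 3.25-fold, with 3 of the 4 arrays without inhibitor detected (1.70 ± 0.24, adjusted p = 5.42e-05), and in time course 1 was 1.66, against 1.74 in time course 2. TIMP3 was at least 3.97-fold above day 0 with IWP-2 (2.66 ± 0.30, adjusted p = 2.25e-06). Without inhibitor it was at least 1.22-fold above (0.96 ± 0.30, adjusted p = 0.0141), a call lost without day 0 of time course 2 (0.65).

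TIMP4 was 6.81 and 8.26 on day 0 and 7.49 and 7.01 on day 1. It had fallen to 5.34 and 5.16 by day 2 (-2.28 ± 0.33, adjusted p = 0.000162). On days 6 and 8 it was not detected in either arm, at least 6.68-fold below day 0 without inhibitor (-3.03 ± 0.28, adjusted p = 3.43e-07) and at least 6.27-fold below with IWP-2 (-3.04 ± 0.28, adjusted p = 2.94e-07).

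**Figure D4:**
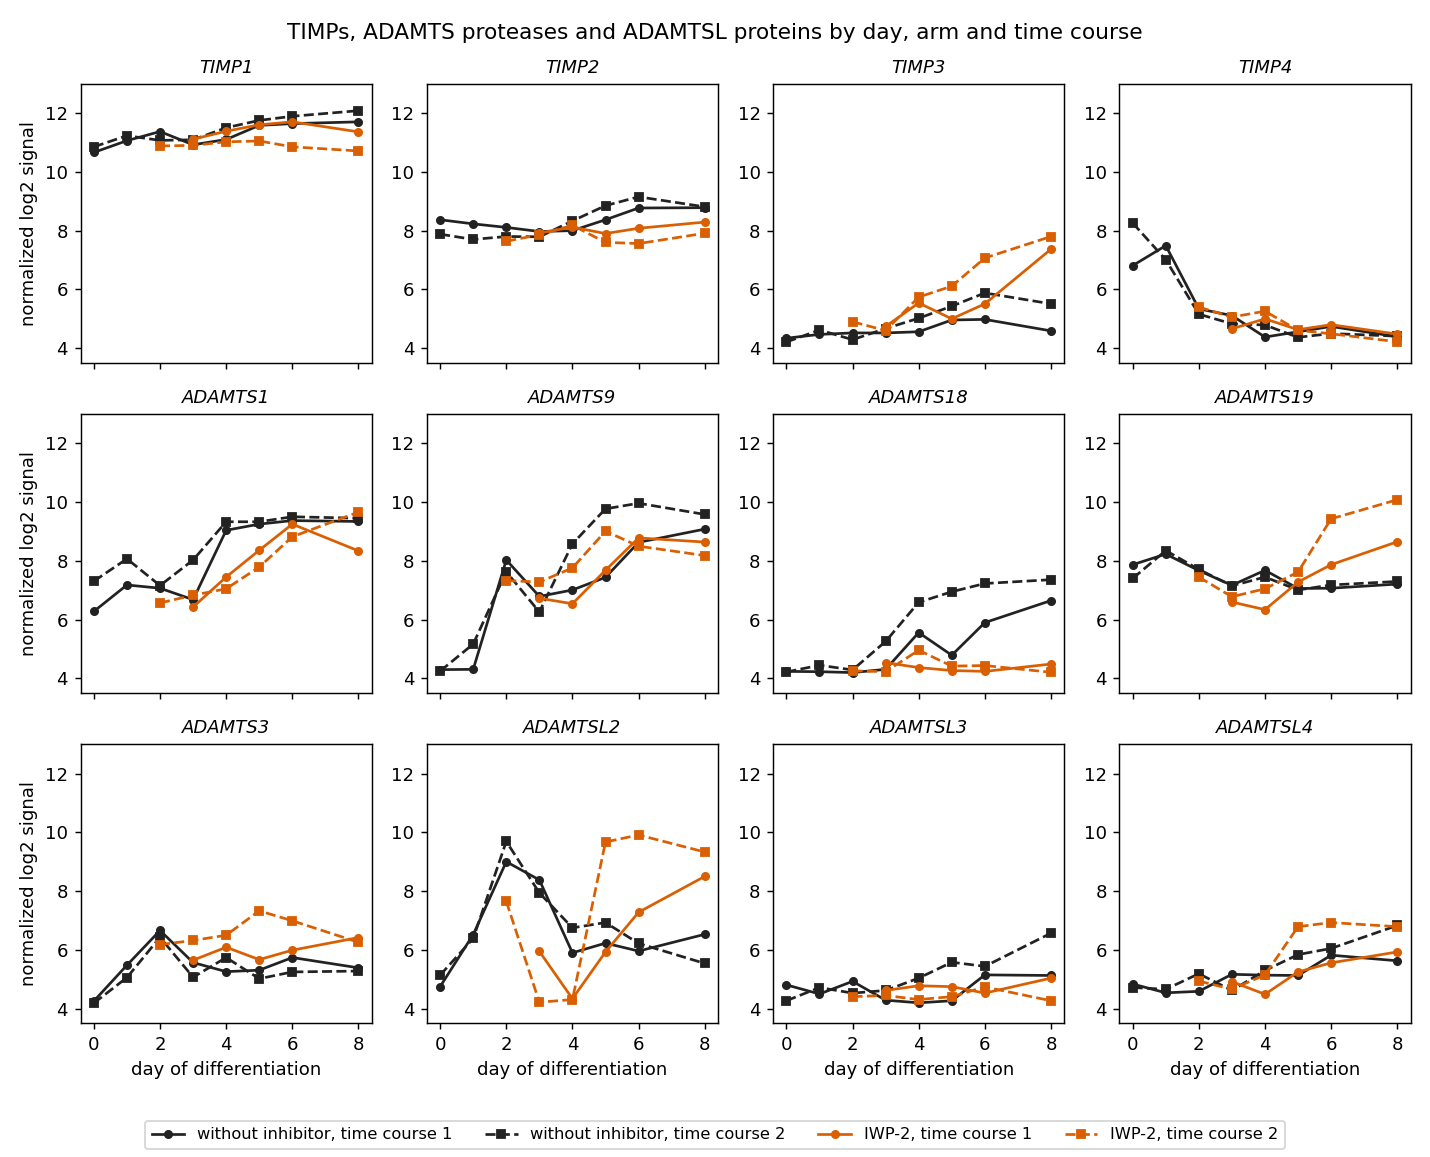
Normalized log2 signal of the 4 TIMP genes, 5 ADAMTS genes and 3 ADAMTSL genes against day of differentiation, without inhibitor (black) and with IWP-2 (orange), time course 1 as circles with solid lines and time course 2 as squares with dashed lines. Each point is 1 array, and the detection limit ranged from 4.72 to 5.13 over the arrays. TIMP4 falls in both arms, TIMP3 and ADAMTS19 end higher with IWP-2, ADAMTS18 rises only in the arm without inhibitor, and ADAMTSL2 dips and then recovers with IWP-2.

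ADAMTS9 and ADAMTS1, which cut versican, rose during differentiation in both arms. ADAMTS9 was below detection on day 0 at 4.30 and 4.25 and stood at 8.03 and 7.63 on day 2, at least 7.37-fold higher (3.56 ± 0.57, adjusted p = 0.000434). On day 8 it was 9.08 and 9.58 without inhibitor and 8.64 and 8.18 with IWP-2. The rise over day 0 on days 6 and 8 was at least 20.6-fold without inhibitor (5.04 ± 0.49, adjusted p = 5.32e-07) and at least 11.9-fold with IWP-2 (4.25 ± 0.49, adjusted p = 2.95e-06). The difference between arms in time course 1 was -0.14, against -1.43 in time course 2. It missed the threshold in the fit (-0.79 ± 0.40, adjusted p = 0.146).

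ADAMTS1 rose from day 4 without inhibitor and was lower with IWP-2 on days 3 and 4. It was 6.28 and 7.31 on day 0. On day 4 it measured 9.04 and 9.33 without inhibitor and 7.45 and 7.05 with IWP-2, and on day 6 it measured 9.37 and 9.50 and 9.25 and 8.82. On days 3 and 4 it was 2.52-fold lower with IWP-2 (-1.33 ± 0.29, adjusted p = 0.0118), a call lost without IWP-2 on day 4 of time course 2 (-1.13) or no inhibitor on day 3 of time course 2 (-1.05). With days of a stage averaged that call was lost as well. On days 6 and 8 the difference was -0.40 ± 0.29 (adjusted p = 0.309), and the test of the change between stages gave 0.93 ± 0.41 (adjusted p = 0.126). It was above day 0 by 2.62 ± 0.35 without inhibitor (adjusted p = 1.45e-05) and by 2.22 ± 0.35 with IWP-2 (adjusted p = 6.5e-05).

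ADAMTS8 was detected on 11 arrays and ADAMTS20, which also cuts versican, on 3. ADAMTS8 was 5.21 and 5.10 on day 0 and 4.35 and 4.31 on day 2, at least 1.14-fold lower (-0.82 ± 0.26, adjusted p = 0.0463), a call lost without any of those 4 arrays (-0.95 to -0.70). Its fall to days 6 and 8 without inhibitor (-0.58 ± 0.23, adjusted p = 0.0467) was lost without either day 0 array (-0.45 and -0.70), without day 6 of time course 1 (-0.44) or without day 8 of time course 2 (-0.49). With IWP-2 ADAMTS8 was 5.12 and 5.87 on day 4 and 5.25 and 5.67 on day 5, above 4.44 and 4.30, then 4.34 and 4.84, in the other arm. The tested differences between arms were 0.45 ± 0.19 on days 3 and 4 (adjusted p = 0.218) and 0.37 ± 0.19 on days 6 and 8 (adjusted p = 0.142). ADAMTS20 was detected on days 6 and 8 only in time course 2 without inhibitor, at 4.95 and 4.76, and was lower with IWP-2 in the fit (-0.35 ± 0.13, adjusted p = 0.0401). That call was lost without any of the 4 IWP-2 arrays and without either of these detected arrays, with values from -0.38 to -0.23. ADAMTS20 passed the detection filter only through the arm without inhibitor, so its p-value is a description. ADAMTS4, an aggrecanase, was detected on 4 arrays, all of time course 2 without inhibitor, and lay between 4.18 and 5.34.

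ADAMTS3, which trims fibrillar procollagen and takes part in maturation of the lymphatic growth factor VEGFC, rose in the induction phase. It went from 4.26 and 4.19 on day 0 through 5.48 and 5.06 on day 1 to 6.66 and 6.43 on day 2, at least 3.02-fold (2.32 ± 0.41, adjusted p = 0.00105). It then eased to 5.39 and 5.28 on day 8 without inhibitor but stood at 6.42 and 6.26 with IWP-2. By days 6 and 8 it was 2.00-fold higher with IWP-2 (1.00 ± 0.29, adjusted p = 0.0131), a call lost without day 6 of time course 2 in the IWP-2 arm (0.77) or in the other arm (0.83). It remained at least 2.76-fold above day 0 with IWP-2 (2.19 ± 0.36, adjusted p = 8.55e-05). Without inhibitor it was at least 1.38-fold above (1.19 ± 0.36, adjusted p = 0.0111), lost without day 0 of time course 2 (1.07).

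ADAMTS18 and ADAMTS19 differed between arms in opposite directions on days 6 and 8. ADAMTS18 was below detection on days 0 to 2 of both time courses. Without inhibitor it was 5.56 and 6.59 on day 4, 5.90 and 7.23 on day 6, and 6.65 and 7.36 on day 8. The IWP-2 arm had it detected on 1 array, day 4 of time course 2 at 4.96, and was 4.49 and 4.21 on day 8. ADAMTS18 passed the detection filter only through the arm without inhibitor, so its p-values are descriptions. It was at least 3.73-fold lower with IWP-2 on days 6 and 8 (-2.44 ± 0.31, adjusted p = 1.79e-05) and at least 3.57-fold above day 0 without inhibitor (2.56 ± 0.38, adjusted p = 4.43e-05). A second ADAMTS18 probe differed between arms by -0.48 ± 0.16 (adjusted p = 0.0318), and its difference from day 0 without inhibitor missed the threshold (0.36 ± 0.20, adjusted p = 0.16).

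ADAMTS19, whose loss causes heart valve disease in humans and mice, was 7.87 and 7.40 on day 0. Without inhibitor it measured 7.07 and 7.18 on day 6 and 7.21 and 7.30 on day 8, a difference from day 0 that missed the threshold (adjusted p = 0.291). The IWP-2 levels were 6.34 and 7.05 on day 4, 7.87 and 9.43 on day 6, and 8.65 and 10.08 on day 8. Every IWP-2 array of days 6 and 8 was above the other arm, a 3.53-fold difference (1.82 ± 0.27, adjusted p = 7.02e-05), and below it on days 3 and 4 (-0.67 in the fit, adjusted p = 0.213). It was above day 0 with IWP-2 by 1.38 ± 0.33 (adjusted p = 0.00245), a call lost without day 0 of time course 2 (0.96). The late difference in time course 1 was 1.12, against 2.52 in time course 2. A limma test compared the time courses in the late IWP-2 arrays, relative to the shift shared by all other days and arms. ADAMTS19 was the only member called, by 1.43 ± 0.22 (adjusted p = 0.0137). That call was lost without day 6 (1.36) or day 8 (1.49) of IWP-2, with the same value whichever time course was left out. With the late arrays without inhibitor as the comparator, 0 members were called. ADAMTS6, a relative of the fibrillin-binding ADAMTS10, was undetected to day 2 and 5.90 and 6.43 on day 3 without inhibitor. It was at least 1.49-fold above day 0 on days 6 and 8 without inhibitor (1.26 ± 0.26, adjusted p = 0.000805) and at least 1.61-fold with IWP-2 (1.37 ± 0.26, adjusted p = 0.000369).

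ADAMTSL2, which binds fibrillin and the latent TGF-beta binding protein LTBP1 and is mutated in geleophysic dysplasia, rose, fell and, with IWP-2, rose again. Day 0 levels of 4.75 and 5.14 became 9.00 and 9.69 on day 2 (4.40 ± 0.87, adjusted p = 0.00248). Without inhibitor it then declined (5.90 and 6.75 on day 4, 6.53 and 5.54 on day 8). Under IWP-2 its level was 7.65 on day 2 of time course 2, 5.95 and 4.22 on day 3, and 4.34 and 4.31, below detection, on day 4. It then rose again to 5.93 and 9.67 on day 5, 7.28 and 9.91 on day 6 and 8.50 and 9.33 on day 8. The second rise came earlier in time course 2, on 1 array per day. IWP-2 was added a day earlier there, but window and run cannot be told apart, and the timing was not tested.

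On days 3 and 4 ADAMTSL2 was lower with IWP-2 (-2.54 ± 0.62, adjusted p = 0.0254). The probe was detected on 1 of those 4 IWP-2 arrays, so the size rests on values below detection, and it was -1.25 without background correction, where it was no longer called, and -5.52 in the table processed by the authors. That call was lost without no inhibitor on day 3 or day 4 of time course 1 (-2.28 and -2.63), without day 4 of time course 2 in that arm (-2.45), and without IWP-2 on day 3 or day 4 of time course 2 (-1.93 and -2.39). Late, on days 6 and 8, it was 6.47-fold higher with IWP-2 (2.69 ± 0.62, adjusted p = 0.00262). The arms did not overlap on those days, and the reversal between stages was 5.23 ± 0.87 (adjusted p = 0.000766), with 3.64 in time course 1 and 6.82 in time course 2. With IWP-2 it stood above day 0 (3.81 ± 0.75, adjusted p = 0.00051), when it was detected in time course 2 only.

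ADAMTSL4, a fibrillin partner of the eye, rose in both arms. Its levels were 4.84 and 4.72 on day 0, and by day 8 5.63 and 6.83 without inhibitor and 5.93 and 6.79 with IWP-2. On days 6 and 8 it was at least 2.19-fold above day 0 without inhibitor (1.30 ± 0.35, adjusted p = 0.00585) and at least 2.56-fold with IWP-2 (1.52 ± 0.35, adjusted p = 0.00182). These calls were lost without day 0 of time course 2 (0.96 and 1.19). A second probe rose as well, by 1.00 ± 0.31 (adjusted p = 0.0135) and 1.33 ± 0.31 (adjusted p = 0.00196). ADAMTSL3 was detected late without inhibitor at 5.15 and 5.44 on day 6 and 5.13 and 6.57 on day 8. It was 4.53 and 4.74, then 5.04 and 4.27, with IWP-2, detected on 1 of the 4 arrays (-0.93 ± 0.31, adjusted p = 0.0285). That call was lost without any of 6 of the 8 arrays, with values from -0.96 to -0.58. ADAMTSL3 passed the detection filter only through the arm without inhibitor, so its p-values are descriptions. Its rise from day 0, at least 1.54-fold (1.03 ± 0.38, adjusted p = 0.0342), was lost without day 0 of time course 2 (0.66), without either day 6 array (1.07 and 0.99) or without day 8 of time course 2 (0.68).

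**Figure D5:**
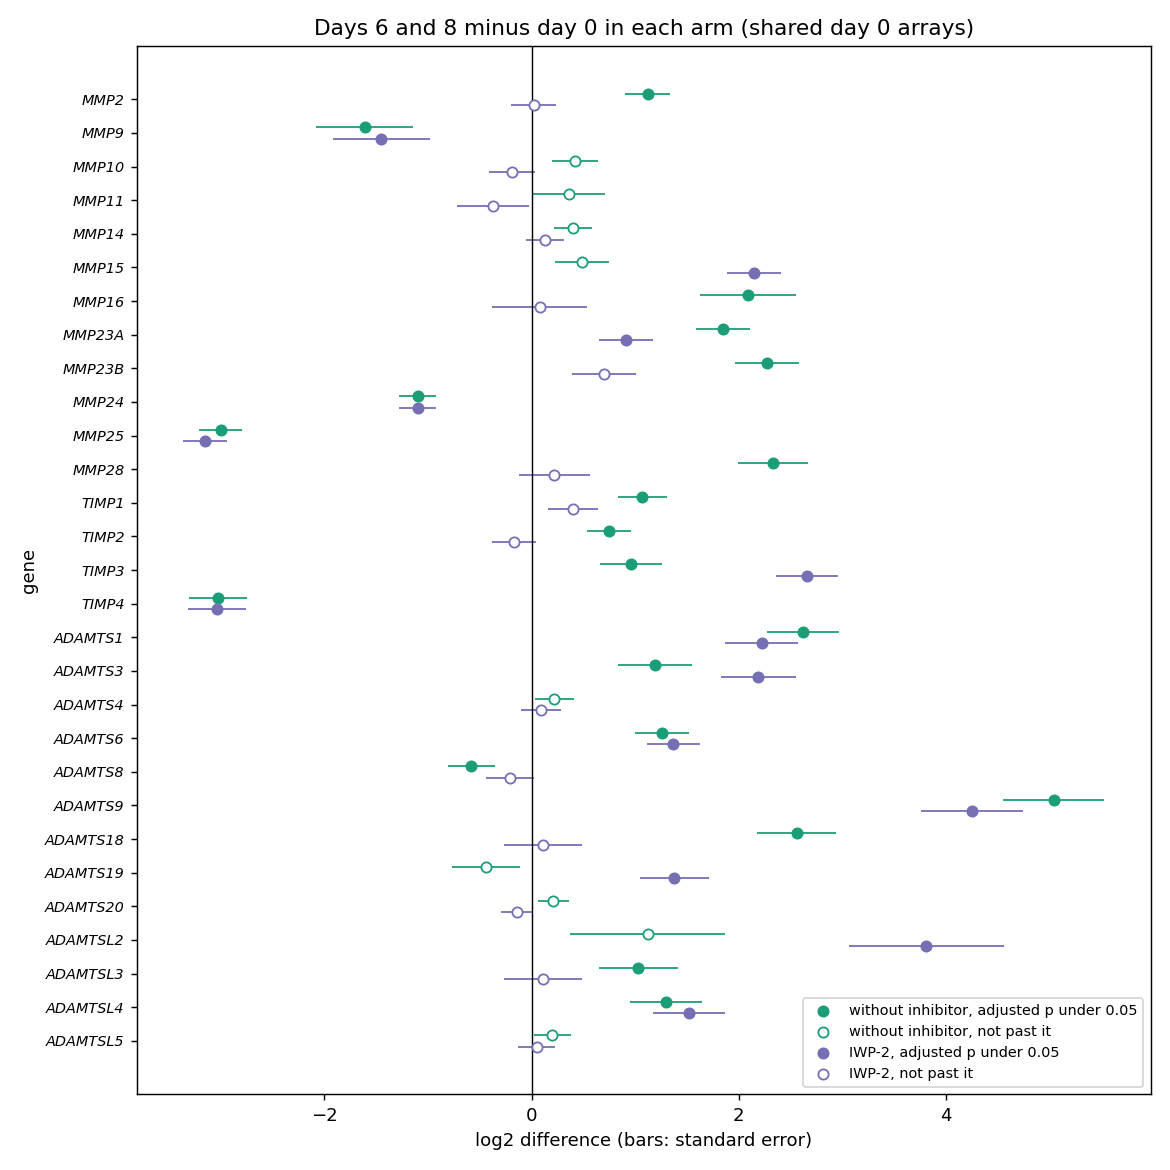
Log2 difference of days 6 and 8 from day 0 for each of the 29 genes, without inhibitor (green) and with IWP-2 (purple). Bars are standard errors, with 4 late arrays per arm against the same 2 day 0 arrays, and filled points passed an adjusted p of 0.05. ADAMTS9 lies farthest right in both arms, MMP25 and TIMP4 farthest left, and MMP28, ADAMTS18, MMP16 and MMP2 are among those filled only without inhibitor.

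Probes close to background depended on how background was removed, though the 68 called member differences kept their direction under every alternative run. In the authors' processed table ADAMTS9 rose by 9.27 on the log2 scale from day 0 to days 6 and 8 without inhibitor, where the fit gave 5.04, and MMP28 differed between arms by -4.74. Without background correction the same differences were 2.99 and -0.88. Both are smaller than the lower bounds given for these genes above, which hold only for the background-corrected values.

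Other proteolytic systems on days 6 and 8 were compared between arms by the same test, in which 17% of all tested genes were higher with IWP-2 and 18.1% lower. Of 12 tested genes of plasminogen activation and serpins, 2 were higher and 5 lower. PLAT, the tissue plasminogen activator, was lower by -4.33 ± 0.68 on the log2 scale (adjusted p = 0.00012), and S100A10 and ANXA2, which together bind plasminogen at the cell surface, by -2.58 ± 0.43 (adjusted p = 0.000208) and -1.68 ± 0.24 (adjusted p = 5.64e-05). TFPI2 (1.91 ± 0.48, adjusted p = 0.00512), a matrix-associated serine protease inhibitor, and the plasminogen receptor PLGRKT (0.46 ± 0.14, adjusted p = 0.0166) were higher. Of 11 ADAM genes, again beside 17% and 18.1%, 2 were higher (ADAM11, 2.46 ± 0.27, adjusted p = 4.69e-06, and ADAM23, 1.38 ± 0.18, adjusted p = 2.07e-05) and 4 lower, led by ADAM12 (-1.31 ± 0.20, adjusted p = 7.67e-05), ADAM15 (-1.20 ± 0.17, adjusted p = 3.7e-05) and ADAM19 (-0.74 ± 0.20, adjusted p = 0.00842). ADAM11 and ADAM23 encode members without a catalytic zinc site.

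Of 11 other regulators of metalloproteinases, 1 was higher and 3 lower with IWP-2, against 17% and 18.1% of all tested genes. PCSK5, a proprotein convertase, was lower by -3.98 ± 0.30 (adjusted p = 7.6e-08), the procollagen C-proteinase enhancer PCOLCE by -2.07 ± 0.37 (adjusted p = 0.000378) and CAV1 by -0.94 ± 0.24 (adjusted p = 0.00585). The broad protease trap A2M was higher (1.37 ± 0.43, adjusted p = 0.0202). Of 3 tested astacin and HTRA proteases HTRA1 was higher (0.98 ± 0.28, adjusted p = 0.0109), and MEP1A (-1.45 ± 0.26, adjusted p = 0.00034) and BMP1 (-0.70 ± 0.23, adjusted p = 0.0275) were lower. Of 11 cathepsins and cystatins, beside the same 17% and 18.1%, 2 were higher and 6 lower, the latter led by CTSK (-0.92 ± 0.21, adjusted p = 0.00226), CTSL (-0.89 ± 0.19, adjusted p = 0.0015) and CST3 (-0.80 ± 0.14, adjusted p = 0.000251). CTSC was higher (1.38 ± 0.14, adjusted p = 1.6e-06), and so was the inhibitor CSTB (0.29 ± 0.10, adjusted p = 0.0311).

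Of 19 tested substrates and binding partners, 6 were higher with IWP-2 and 5 lower, against 17% and 18.1% of all tested genes. The fibrillin FBN2 (2.98 ± 0.43, adjusted p = 5.64e-05), the cartilage collagen gene COL2A1 (2.63 ± 0.21, adjusted p = 1.69e-07) and HAPLN1, which links hyaluronan to versican (1.39 ± 0.28, adjusted p = 0.00109), led the higher genes. COL3A1 (-4.73 ± 1.13, adjusted p = 0.00366), RELN (-3.09 ± 0.72, adjusted p = 0.00305) and COL1A1 (-2.76 ± 0.58, adjusted p = 0.00132) led the lower ones. COL3A1, COL1A1 and COL1A2 are also on the fibroblast marker list. The medians were 0.06 for plasminogen activation, 0.03 for ADAM genes, -0.22 for other regulators, -0.70 for astacin and HTRA proteases, -0.63 for cathepsins and cystatins and 0.01 for substrates, against -0.02 over all tested genes.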

How the data were processed

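Total RNA of HuES6 cells was purified on columns with DNase, amplified, labelled with biotin by in vitro transcription for 14 hours and run on Illumina bead arrays, as the labels' protocols state. The scanner table deposited by the authors holds a signal intensity and a detection p-value per probe and array, per the file headers, without background subtraction or normalization judging from the values. A second deposited table gives the authors' processed intensity on a linear scale, whose medians are 6.876 (time course 1) and 4.63 (time course 2). Its method, scale and centring are not given in the sources used here beyond the name GenomeStudio in the submitters' processing notes, and it served as an alternative. Of 47323 probes, 30113 had 1 gene symbol, 8 several and 17202 none in the annotation given. Entrez identifiers of 30074 matched the RefSeq table and 0 symbols changed.

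Intensities were corrected and quantile normalized by neqc (offset 16, log2) in limma 3.58.1 under R 4.3.3. The probe with the highest mean raw signal stood for a gene, and genes detected at p below 0.01 on at least 2 arrays were tested. Models had a mean for each day and arm, with the time course as a block. The labels give each inhibitor arm a control arm of its own time course, and the 13 groups with 2 arrays deviated together in 78 of 78 pairs (correlations 0.124 to 0.802). Differences are log2 with standard errors. Where no array of the dimmer group was detected, the fold is a lower bound on the normalized scale only. It was set against, for each dim array, its lowest detected signal or the probe's own signal if that was higher. The number of arrays limits the precision. Members and lists were chosen with earlier results of these data known. Named genes were every detected member called in at least 1 contrast, the TIMP genes, MMP2, MMP9, MMP14 and MMP15, and up to 3 passing genes per direction of each other list, and MMP11, ADAMTS4 and other uncalled members were named after their values were seen. Alternatives covered the block, normalization, background, detection filters, probe choice, variance model, array weights, averaging of days, single time courses, a threshold of 0.01 and leaving out each array. The files name no slide, so none was used as a block.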

Additional observations from a re-analysis of the deposited data

Results flagged for a closer look

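In 9 genes the difference between IWP-2 and no inhibitor changed from days 3 and 4 to days 6 and 8 in limma's test of that change (adjusted p below 0.05). The change was 5.23 for ADAMTSL2 (SE 0.87), which went from lower to higher with IWP-2. It was 2.49 for ADAMTS19 (SE 0.38), 1.49 for MMP15 (SE 0.30) and 1.23 for TIMP3 (SE 0.35), and these had the direction of higher with IWP-2 late. It was -2.74 for MMP16 (SE 0.53), -1.54 for ADAMTS18 (SE 0.44), -1.53 for MMP28 (SE 0.39), -1.47 for MMP23B (SE 0.36) and -0.91 for TIMP2 (SE 0.24). Within each time course all 9 had the same sign. With days of a stage averaged, the calls for MMP23B, TIMP2, MMP28, TIMP3 and ADAMTS18 were lost. Those for MMP28, TIMP3 and ADAMTS18 were also lost in the table processed by the authors. Second probes also changed for MMP16 (-0.79, adjusted p = 0.0117) and TIMP2 (-0.92, adjusted p = 0.00501), but missed the threshold for MMP23B (-0.64, adjusted p = 0.134), ADAMTS18 (-0.30, adjusted p = 0.411) and MMP28 (-0.64, adjusted p = 0.0639, and -0.46, adjusted p = 0.123). The calls for TIMP3 and ADAMTS18 were lost in 6 and 7 of 16 fits that left out 1 array. Those for TIMP3 were without no inhibitor on days 3, 6 or 8 of time course 1 (1.15, 1.11 and 1.11) or IWP-2 on days 3, 4 or 6 of time course 2 (1.07, 1.17 and 0.93). Those for ADAMTS18 were without IWP-2 or no inhibitor on day 3 or no inhibitor on day 4 of time course 1, or any of the 4 late arrays of time course 2, with values from -1.49 to -1.31.

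In ADAMTS19 the late IWP-2 arrays were higher in time course 2 by 1.43 (SE 0.22), relative to the shift of all other groups. Every late array was higher with IWP-2 in each time course. Window and run cannot be told apart. With an own time course term for the late arms without inhibitor, the test called 0 members. That alternative, chosen after seeing the data, is the one that sets the late arms directly against each other. Groups held 1 or 2 arrays, too few to look for a stray array within a group.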

How the results depend on the processing

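Of 68 called member differences, 68 kept their direction under every alternative and 19 stayed past the threshold under all, and 1270 of 1468 recomputed values were past it. Counts are members, then all genes. Paired analysis by time course was the design. With no replicate block, 1174 genes were called on day 2, 350 on days 3 and 4 between arms and 1463 for the change between stages, where the blocked fits gave 1931, 592 and 2481. Day 2 gave 326 genes in time course 1 alone, 3 and 333 in time course 2 alone, and 973 at a threshold of 0.01. Late minus day 0 gave 3528 and 3711 genes in the single time courses without inhibitor (6470 in all) and 3575 and 4116 with IWP-2 (6597 in all). For the arms on days 3 and 4 (2 and 592), members fell to 1 without background correction and without a detection filter, and to 0 with days averaged (172 genes), in time course 1 (2 genes) and at 0.01 (273 genes). Time course 2 gave 1 and 98, the table processed by the authors gave 360 genes and array weights 1102. For days 6 and 8 (16 and 4744), averaging gave 2794 genes, time course 1 gave 4 and 1173, and time course 2 gave 2715 genes. The change between stages (9 and 2481) gave 13 members (4 higher, 9 lower) and 3849 genes with median scaling, 4 and 669 with averaging, 0 and 67 in time course 1, 3 and 564 in time course 2 and 5 and 1165 at 0.01. The difference between time courses in the late IWP-2 arrays, relative to all other groups (1 and 77), gave 202 genes with array weights. It gave 0 and 4 with an own term for the late arms without inhibitor, and 0 and 8 at 0.01. Leaving out 1 array gave 997 to 1340 genes on day 2 and 13 to 20 members late without inhibitor, with 13 without the day 0 array of time course 2. It gave 0 to 3 members and 296 to 517 genes between arms on days 3 and 4, with 0 members without IWP-2 on day 4 of time course 2. It gave 0 to 1 members and 6 to 89 genes between time courses. Each lone array was assumed to vary like the other groups. With median scaling the median of all genes was 0.12 between arms on days 3 and 4 (0.02 with quantiles), with 69.1% of calls higher (47.5% with quantiles). It was -0.17 on days 6 and 8 (-0.02), with 28.4% (48.4%), -0.31 between stages (-0.05), with 18.1% (49.8%), and -0.18 between time courses (0.00), with 17.7% (37.7%). For the last, no background correction gave 53.7% and the values processed by the authors gave 17.7%. The causes were not tested. Single time courses have fewer arrays. Probes near background set only bounds.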
